A study of Mus musculus with 4 samples.

Results

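A set of 10 genes that break down heme or handle its iron were followed in transformed mouse fibroblasts exposed to diethyl maleate (DEM), an electrophile that binds glutathione and so depletes it. They were the heme oxygenases Hmox1 and Hmox2, the biliverdin reductases Blvra and Blvrb, the ferritin chains Fth1 and Ftl1, the transferrin receptor Tfrc, the iron exporter Slc40a1, the heme transporter Slc48a1 and the heme-making enzyme Fech. They were chosen by gene name among the non-control probes of the array, where 10 of 49739 gene and transcript names belonged to them, carried by 13 probes. All 10 were well above background on all 4 arrays, so the filter on dim probes removed none. The cells were C3H10T1/2, a mouse embryo fibroblast line. In both groups they had been transformed in culture, per the labels' protocols, with 3MC, a polycyclic hydrocarbon (2.5 µg/ml over 2 days), and then TPA, a phorbol ester (100 ng/ml over a period of 2 weeks), with a further 4 weeks in plain medium. One group of 2 arrays had the treatment label none, with no vehicle named, and the other of 2 arrays had 0.25 mM DEM. How long the cells were exposed is not stated in the labels. Whether the 2 arrays of each group stand for separate cultures is not stated either, so the p-values reflect only how far these samples differ, and that spread may be technical.

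Heme is a porphyrin ring that holds an iron atom. Heme oxygenase opens the ring and yields biliverdin, carbon monoxide and free iron. Biliverdin reductase turns biliverdin into bilirubin, and the iron is stored in ferritin, exported through ferroportin (the product of Slc40a1) or built into new heme by ferrochelatase (the product of Fech). As background, Hmox1 is the inducible oxygenase of electrophile stress and Hmox2 the constitutive one. Several genes of the pathway are known to answer to the activator NRF2 (Nfe2l2) and the heme-sensing repressor BACH1, while ferritin and transferrin receptor mRNAs are also controlled through iron-regulatory proteins that bind them.

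Levels below are log2 of the background-corrected spot signal minus the 75th percentile of that signal on the same array, so a level of 0 is the signal at that percentile. The 75th percentile itself was 701 and 747 on the untreated arrays, against 449.9 and 412 on the DEM arrays, a difference of -0.75 on the log2 scale, and between 47.8% and 52.7% of spots per array were well above background. All 4 arrays were on 1 slide, the untreated pair in row 1 and the DEM pair in row 2, so position on the slide and treatment cannot be told apart. All 12 fibroblast markers examined were well above background on at least 1 array. With DEM 7 were lower and 0 higher, beside 11.8% lower and 15.5% higher over all genes and transcripts tested. The 5 that did not pass were Postn (-2.51, limma adjusted p = 0.0891), S100a4 (-0.54), Vim (-0.28), Col1a1 (-0.04) and Thy1 (0.23). The summed signal of the fibroblast list, relative to the 75th percentile, was 1572 and 1628 on the untreated arrays, against 851 and 1249 on the DEM arrays. Erythroid markers, which would come from cells rich in heme, were near the floor: of 8 on the array only Epor was well above background, on 1 array, and the summed signal was 0.110 to 0.137 untreated and 0.149 to 0.201 with DEM. Of 13 macrophage markers 6 could be tested, with 0 higher and 2 lower (Lyz1 and Lyz2), and the summed signal was 4.77 to 5.74 untreated and 5.06 to 6.99 with DEM. Endothelial markers gave 1 testable gene of 10 (Tek, lower; sums 0.197 to 0.242 untreated and 0.187 to 0.403 with DEM), and hepatocyte markers 2 of 9 (neither passed; sums 0.534 to 0.585 and 0.471 to 0.901). Fap and Lum among the lower fibroblast markers, Lyz1 and Tek were well above background on the untreated arrays alone, so the filter kept them only through that group. The part of these shifts in the results was not tested. In bulk samples fewer cells of a type and less RNA per cell cannot be told apart.

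Of the 10 genes, 6 were higher with DEM, 0 were lower and 4 did not pass (limma, adjusted p under 0.05 over all 24658 genes and transcripts tested, n = 2 arrays per group). Over all genes tested, 15.5% were called higher and 11.8% lower (27.2% in either direction). Here and below, all genes include noncoding transcripts, whose probes were 20632 of 61177 before the filter on dim probes. Of the 10, 5 were called and at least 2-fold higher, a class that held 8.66% of all genes. The median change of the 10 was 1.26 on the log2 scale, against 0.16 over all genes tested, whose 5th and 95th percentiles were -1.83 and 1.43. Hmox1, Blvrb, Slc48a1, Tfrc and Ftl1 lay above that 95th percentile. Fth1, though called higher, lay inside the range, as did Hmox2, Blvra, Slc40a1 and Fech. Both DEM arrays were above both untreated arrays for 7 of the 10 genes (42.4% of all genes), below for 1 (26% of all genes), and overlapping for 2. Without the first or the second untreated array, 5 of the 10 were higher, among 836 and 644 such genes in all. The members were picked with earlier results of these data known, so these counts describe the 10 genes and do not test them as a group.

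**Figure D1:**
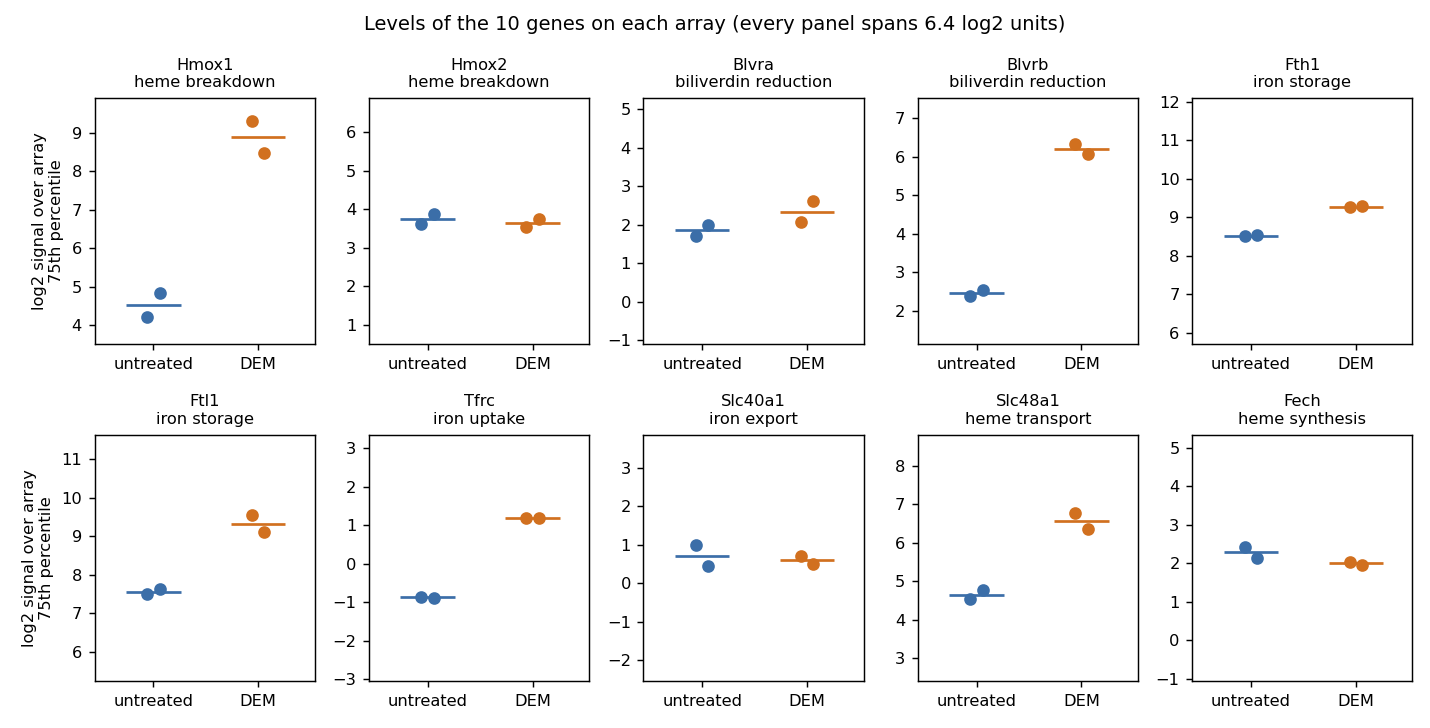
Level of each of the 10 genes on each array (log2 signal over the 75th percentile of the array; points are arrays, lines are group means, n = 2 per group; every panel spans the same number of log2 units). The DEM arrays stand clear of the untreated arrays for Hmox1, Blvrb, Slc48a1, Tfrc, Ftl1 and Fth1, and the groups overlap for Hmox2 and Slc40a1.

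**Figure D2:**
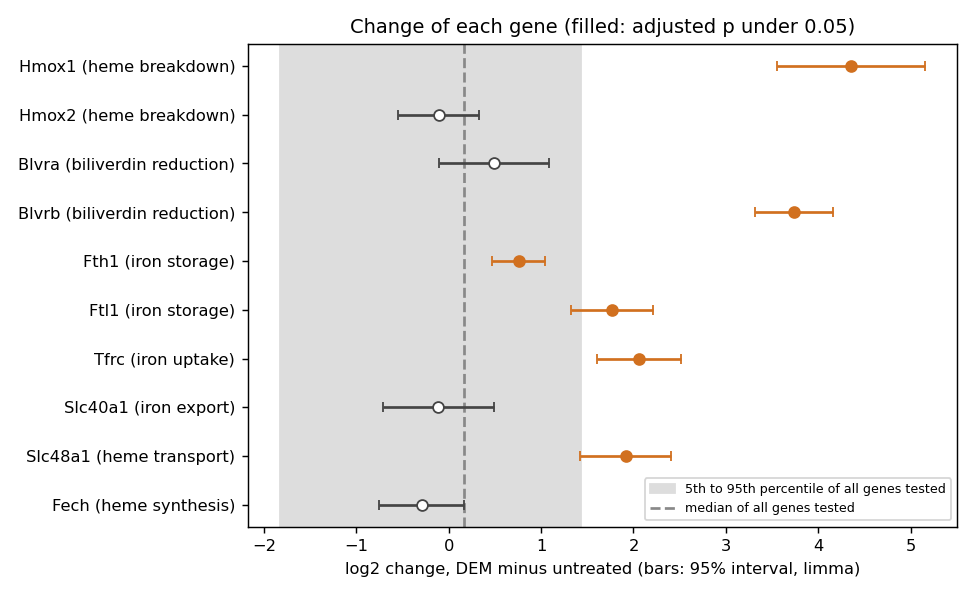
Log2 change of each gene, DEM minus untreated, with its 95% interval from limma. Filled points passed an adjusted p of 0.05. The grey band runs from the 5th to the 95th percentile of all 24658 genes and transcripts tested, and the dashed line is their median of 0.16. Hmox1 (4.36) and Blvrb (3.74) lie farthest to the right, and the intervals of Hmox2, Blvra, Slc40a1 and Fech include 0.

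The first step of heme breakdown is carried by Hmox1 and Hmox2, of which the first was higher with DEM and the second did not pass. The level of Hmox1 was 4.21 and 4.85 on the untreated arrays, against 9.30 and 8.48 on the DEM arrays. The DEM arrays were thus far above both untreated arrays, although the arrays of each group differed from each other more than for any other of the 10 genes. The change was 4.36 ± 0.33 (SE) on the log2 scale, or 20.5-fold with a 95% interval of 11.8 to 35.7 (limma adjusted p = 0.00121), and 0.264% of all genes tested had a larger rise. Hmox2 had levels of 3.63 and 3.87 untreated and 3.53 and 3.75 with DEM. Its groups overlapped, and its change of -0.11 ± 0.18 did not pass (limma adjusted p = 0.683); the 95% interval of -0.55 to 0.33 leaves out any change near that of Hmox1.

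A scaling of a whole array by a constant cancels when one gene is subtracted from the other on the same array. Signals of different probes cannot be set against each other, so only the change of such a difference between groups can be read. Hmox1 minus Hmox2 was 0.58 and 0.98 on the untreated arrays, against 5.77 and 4.73 on the DEM arrays, a change of 4.47, so that Hmox1 rose 22.1-fold relative to Hmox2. With 2 arrays against 2 the exact permutation test, two-sided, cannot go below p = 0.333, and all 5 pairs of genes compared in this way gave p = 0.333.

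Biliverdin reduction showed the same kind of split, with Blvrb strongly higher and Blvra not passing. BLVRB, also known as flavin reductase, reduces the beta isomer of biliverdin and flavins, whereas BLVRA reduces the alpha isomer that heme oxygenase makes. The array measured Blvrb with 2 probes that overlap by 44 of 60 bases and differ in 2 of the shared bases. They are shown because their values can be read as 2 measurements of nearly the same stretch of the transcript. The 30 bases at the end of the overlap follow, with the differing bases in capitals; counted from the 5′ end of these windows, the changes from the upstream to the downstream probe are G20A and T23C.

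Upstream probe of Blvrb: tcaataaatttttagccaaGagTttcaaat
Downstream probe of Blvrb: tcaataaatttttagccaaAagCttcaaat

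The downstream probe, which was the brighter and stood for the gene, read 2.39 and 2.53 on the untreated arrays, against 6.33 and 6.07 on the DEM arrays. The upstream probe read 2.47 and 2.39 untreated and 5.99 and 5.98 with DEM. On both probes the arrays of a group lay close together and the groups lay far apart. The change was 3.74 ± 0.17 (SE), or 13.3-fold with a 95% interval of 9.99 to 17.8 (limma adjusted p = 0.00065), on the downstream probe. The upstream probe gave 3.56 ± 0.15, or 11.8-fold (limma over all 31771 kept probes, adjusted p = 0.00061), and the 95% intervals of both probes overlapped (3.32 to 4.16 and 3.18 to 3.93). Blvrb was 101st of 24658 genes and transcripts by rise.

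Blvra had levels of 1.71 and 2.00 on the untreated arrays, against 2.07 and 2.61 on the DEM arrays. Both DEM arrays were above both untreated arrays, by little in the case of the first. The change of 0.49 ± 0.24 did not pass (limma adjusted p = 0.186, 95% interval -0.11 to 1.08). Without the first DEM array it was 0.76 with an adjusted p of 0.0383, so whether Blvra passes depends on that array. Blvrb minus Blvra on the same array was 0.68 and 0.53 untreated and 4.25 and 3.46 with DEM, a change of 3.25.

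The windows upstream of these genes were examined because one gene was called higher and the other was not. Of the 10 genes 6 matched RefSeq's promoter table (GRCm38.p6): Hmox2, Blvra, Blvrb, Fth1, Ftl1 and Tfrc. Hmox1, Slc40a1, Slc48a1 and Fech are named only. The 250 bases before the annotated start were searched on both strands for 3 short motifs. These were the core of the antioxidant response element to which NRF2 and BACH1 bind (TGACNNNGC), the AP-1 site (TGANTCA) and the CCAAT box (CCAAT). Among 32851 such windows of the table, 10.2% held the first, 6.75% the second and 33.8% the third. Where a gene had several windows, that with the most CpG pairs was used. The windows of Blvra (chr2:127070407-127070656, plus strand) and Blvrb (chr7:27447728-27447977, plus strand) read as follows, 5′ to 3′ on the gene's strand, with motif matches in capitals.

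Blvra: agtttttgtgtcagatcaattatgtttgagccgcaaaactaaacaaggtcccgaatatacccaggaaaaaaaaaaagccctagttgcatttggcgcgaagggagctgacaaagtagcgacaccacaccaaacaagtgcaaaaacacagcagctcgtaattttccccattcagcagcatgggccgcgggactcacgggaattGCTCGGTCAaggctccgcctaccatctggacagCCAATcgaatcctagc
Blvrb: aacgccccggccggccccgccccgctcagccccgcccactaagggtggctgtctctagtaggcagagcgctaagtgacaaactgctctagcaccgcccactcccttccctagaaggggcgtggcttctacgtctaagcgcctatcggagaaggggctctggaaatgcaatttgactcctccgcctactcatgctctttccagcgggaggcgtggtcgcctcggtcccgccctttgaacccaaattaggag

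The window of Blvra held 1 match to the antioxidant response element core, on the reverse strand and beginning 49 bases before the start, and a CCAAT box beginning 16 bases before the start. Neither motif, nor the AP-1 site, was found in the window of Blvrb, the gene that changed. A match is a description of the letters, and these windows do not include distant enhancers.

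Iron storage RNA rose for both ferritin chains, but only the light chain did so before the arrays were scaled. Ftl1 encodes the light chain, which helps to form the mineral core. Its levels were 7.49 and 7.63 on the untreated arrays, against 9.56 and 9.10 on the DEM arrays, with the groups well apart. The change was 1.77 ± 0.18 (SE), or 3.40-fold with a 95% interval of 2.50 to 4.63 (limma adjusted p = 0.00266). The background-corrected signal itself rose from 126225 and 148216 to 338472 and 226850, a change of 1.02 without scaling (adjusted p = 0.00904). The Ftl1 probe lists 6 RefSeq accessions in the files, of which 1 matched Ftl1 and 5 matched no gene of the name table, so its signal may include near-identical copies.

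Fth1 encodes the heavy chain, the ferroxidase that oxidises iron as it enters the shell. Its levels were 8.51 and 8.53 untreated and 9.28 and 9.28 with DEM. The 2 groups were separate and each pair was nearly identical. The change was 0.76 ± 0.12 (SE), or 1.69-fold with a 95% interval of 1.38 to 2.06 (limma adjusted p = 0.00818). The signal before scaling was 255641 and 277129 on the untreated arrays, against 279072 and 256590 on the DEM arrays, which overlap. Without scaling the change was 0.01 ± 0.13 (adjusted p = 0.966), while the median over all genes was then -0.59. The rise of Fth1 was therefore a rise relative to the other genes of the array and not of its signal. The call was also lost with quantile normalization (0.18, adjusted p = 0.149) or spike-in scaling (0.60, adjusted p = 1.00), without the first untreated array (0.74, adjusted p = 0.0928), or without the second (0.77, adjusted p = 0.0906). None of the spots was marked as saturated. Ftl1 minus Fth1 on the same array was -1.02 and -0.90 untreated and 0.28 and -0.18 with DEM, so the light chain rose by 1.01 more on the log2 scale than the heavy chain.

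The windows upstream of the ferritin genes, Fth1 (chr19:9982396-9982645, plus strand) and Ftl1 (chr7:45459887-45460136, minus strand), are given in the same way, since both genes rose.

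Fth1: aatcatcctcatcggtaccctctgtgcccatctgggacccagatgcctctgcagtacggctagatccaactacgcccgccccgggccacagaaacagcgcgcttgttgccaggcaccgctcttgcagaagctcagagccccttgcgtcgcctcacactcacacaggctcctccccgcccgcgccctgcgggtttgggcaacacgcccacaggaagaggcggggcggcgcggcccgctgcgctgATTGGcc
Ftl1: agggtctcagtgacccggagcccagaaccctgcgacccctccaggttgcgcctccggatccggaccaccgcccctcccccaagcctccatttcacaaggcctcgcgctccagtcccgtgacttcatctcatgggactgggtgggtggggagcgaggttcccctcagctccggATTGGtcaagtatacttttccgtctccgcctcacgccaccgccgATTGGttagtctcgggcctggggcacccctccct

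Both held CCAAT boxes on the reverse strand, read as ATTGG: Ftl1 had 2, beginning 78 and 34 bases before the start, and Fth1 had 1, beginning 7 bases before the start. Neither held the antioxidant response element core or the AP-1 site. Over the 6 genes with a window, 4 held a CCAAT box (Blvra, Fth1, Ftl1 and Tfrc), 1 the antioxidant response element core (Blvra) and 0 the AP-1 site.

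Iron and heme transport genes moved in different ways: the receptor for transferrin-bound iron and the heme transporter were higher, and the iron exporter did not pass. Tfrc, the receptor that takes up iron-loaded transferrin, had levels of -0.86 and -0.90 on the untreated arrays, against 1.17 and 1.19 on the DEM arrays. The groups were well apart, and the replicates were nearly equal in each. The change was 2.06 ± 0.18 (SE), or 4.17-fold with a 95% interval of 3.05 to 5.70 (limma adjusted p = 0.00187). Slc40a1, ferroportin, the iron exporter of the cell membrane, had levels of 0.99 and 0.44 untreated and 0.70 and 0.51 with DEM. Its DEM arrays lay between the untreated arrays, and the change of -0.11 ± 0.25 did not pass (limma adjusted p = 0.764, 95% interval -0.71 to 0.49). Tfrc minus Slc40a1 on the same array was -1.85 and -1.34 untreated and 0.47 and 0.68 with DEM, a change of 2.17.

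Slc48a1 (HRG1) carries heme out of endosomes and lysosomes into the cytosol, and both of its probes rose. The brighter probe read 4.53 and 4.78 on the untreated arrays, against 6.79 and 6.35 on the DEM arrays. The other read 2.88 and 3.15 untreated and 4.69 and 4.32 with DEM. On each probe the DEM arrays stood clear of the untreated arrays, with the first DEM array the higher. The change was 1.92 ± 0.20 (SE), or 3.77-fold with a 95% interval of 2.68 to 5.31 (limma adjusted p = 0.00285), on the brighter probe. On the other it was 1.49 ± 0.20, or 2.81-fold (limma over all kept probes, adjusted p = 0.00548).

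Fech, which inserts iron into protoporphyrin in the last step of heme synthesis, did not pass. Its brighter probe read 2.44 and 2.15 on the untreated arrays, against 2.04 and 1.95 on the DEM arrays. Both DEM arrays were slightly below both untreated arrays, and the change was -0.29 ± 0.19 (limma adjusted p = 0.29, 95% interval -0.75 to 0.17). The second probe, at 0.44 and 0.49 untreated and 0.16 and 0.33 with DEM, gave -0.22 (limma over all kept probes, adjusted p = 0.434). Hmox1 minus Fech was 1.78 and 2.71 untreated and 7.26 and 6.53 with DEM. The RNA signal of Hmox1 thus rose by 4.65 on the log2 scale relative to that of Fech, which did not itself rise. Over all probes of the 10 genes, 8 of 13 were higher (14.6% of all kept probes were), and no gene had a probe that went against another.

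**Figure D3:**
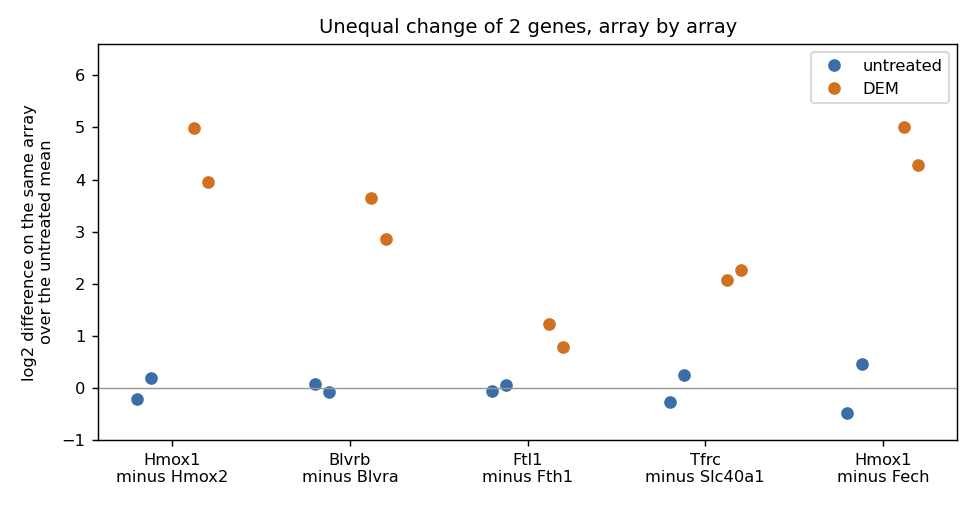
Difference in log2 level between 2 genes on the same array, set to 0 at the mean of the untreated arrays (points are arrays, n = 2 per group). The change between groups was 4.47 for Hmox1 minus Hmox2, 3.25 for Blvrb minus Blvra and 1.01 for Ftl1 minus Fth1. It was 2.17 for Tfrc minus Slc40a1 and 4.65 for Hmox1 minus Fech. All 5 pairs gave the smallest exact permutation p that 2 arrays against 2 allow, 0.333, so their separation is descriptive.

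Hmox1 and Blvrb passed under all 17 alternative settings, with changes of 3.61 to 4.77 and of 2.99 to 3.86. Ftl1, Tfrc and Slc48a1 passed under all but 1, the scaling to the 7 spike-in probes, where their adjusted p was 0.119, 0.135 and 0.123 at changes of 1.61, 1.90 and 1.76. The level of the 75th percentile over the spike-in probes differed within both groups (-2.76 and -3.41 untreated, -2.79 and -3.70 with DEM). Without scaling, Hmox2 (-0.86, adjusted p = 0.0132), Slc40a1 (-0.86, adjusted p = 0.0321) and Fech (-1.04, adjusted p = 0.00754) were called lower, beside a median over all genes of -0.59. Their calls thus change with the scaling, and so does the balance over all genes: higher genes were 56.8% of those changed, against 70.0% with normexp background correction, 40.8% after cyclic loess, 42.0% with the percentile of detected probes, 29.0% after spike-in scaling and 8.30% without scaling.

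**Figure D4:**
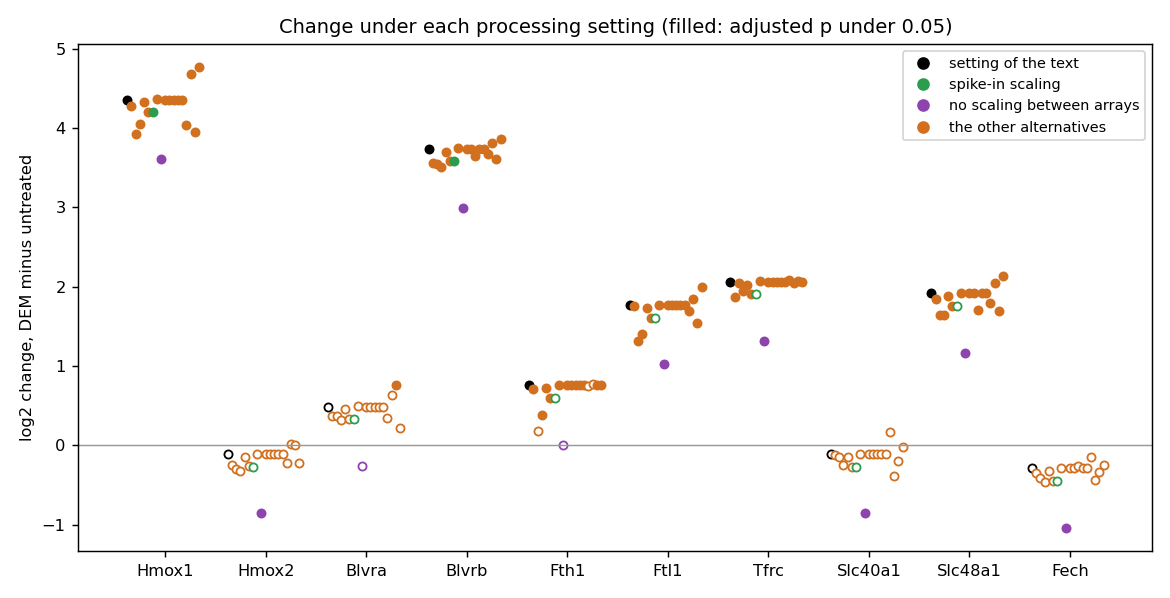
Log2 change of each gene, DEM minus untreated, under the setting of the text (black) and 17 alternatives; filled points passed an adjusted p of 0.05. Hmox1 and Blvrb are filled throughout, Fth1 falls to 0.01 without scaling (purple), and the spike-in points (green) of Ftl1, Tfrc and Slc48a1 are open.

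Other genes of heme and iron metabolism were described by 8 lists, none of which holds the 10 genes. Together 83 of their 103 genes could be tested, of which 20 were higher, 15 lower and 48 did not pass, beside 15.5% higher and 11.8% lower over all genes. The median change was 0.24, against 0.16 over all genes. Of the 15 lower genes, 5 were not well above background on either DEM array and entered the test only through the untreated group, so their calls are no evidence of their own. They get an approximate lower bound on the fold here and no p. Without the first untreated array 9 list genes were higher and 6 lower (836 and 872 of all genes), and without the second 8 and 6 (644 and 802 of all genes). With spike-in scaling 3 were higher and 6 lower (363 and 889 of all genes). The 3 higher were Abcb6, Gsta1 and Slc11a1, so the other rises called below did not pass in that setting. Of the falls given with a p below, only those of Epas1 and Tmprss6 passed in it. In heme synthesis 3 of 12 genes rose and 0 fell, with a median of 0.18. They were Abcb6, a porphyrin transporter (3.05, 8.26-fold, limma adjusted p = 0.00098), Slc25a38, the mitochondrial glycine carrier (1.96, 3.88-fold, adjusted p = 0.0019), and Alas1, the rate-limiting first enzyme (0.99, 1.99-fold, adjusted p = 0.0144). Alas1 did not pass without the first untreated array (1.03, adjusted p = 0.0859) or without the second (0.95, adjusted p = 0.105). Without scaling it was at 0.24 (adjusted p = 0.319), so that its rise, like that of Fth1, was relative to the other genes.

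Among 8 tested genes of heme transport and binding, 2 rose and 4 fell. Flvcr1, a heme exporter, rose by 2.28 (4.87-fold, limma adjusted p = 0.00249), and Pgrmc1, a heme-binding membrane protein, by 1.39 (2.62-fold, adjusted p = 0.00874). Hp, haptoglobin, which binds free hemoglobin, was at least 9.26-fold lower and not well above background on the DEM arrays. Such bounds set the bright group against the lowest signal well above background on each array, or the gene's own signal where higher. The latter held for Lcn2, named below, on the first DEM array (-4.17, against -4.28). That floor is the lowest of such signals and no detection limit, so the bounds are approximate. Slc46a1, a folate and heme carrier, fell by 1.23 on the log2 scale (adjusted p = 0.0136). Only 2 genes of bilirubin handling could be tested. Gsta1, a glutathione transferase that also binds bilirubin and has close relatives that may share its signal, rose by 9.19 (limma adjusted p = 0.000429). Its untreated levels of -3.93 and -4.45 lay close to the lowest signals well above background there (-4.82 and -4.80). With normexp its rise was 7.73. Abcc3, an exporter of bilirubin conjugates, was at least 10.1-fold lower and not well above background on the DEM arrays. Without the first and the second untreated array in turn, the adjusted p was 0.06 and 0.0678 for Pgrmc1 and 0.0738 and 0.122 for Slc46a1. Without scaling Pgrmc1 was at 0.64 (adjusted p = 0.0742).

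Iron uptake and release was divided, with 4 of 12 genes higher, 5 lower and a median of -0.17; 3 of the 5 were kept only through the untreated arrays. Slc11a1, a metal transporter of phagosomes, rose by 2.42 (5.35-fold, limma adjusted p = 0.00512), and Mcoln1, a lysosomal channel that passes iron, by 1.21 (2.31-fold, adjusted p = 0.00488; 0.0539 without the second untreated array and 0.0824 at a change of 0.46 without scaling). Steap4, a metalloreductase, was at least 13.0-fold lower and Lcn2, which binds iron-loaded siderophores, at least 14.5-fold lower, neither well above background on the DEM arrays. Slc11a2 (DMT1), which passes transferrin-derived iron out of endosomes after uptake through Tfrc, was at -0.54 and did not pass (adjusted p = 0.0645). It was called lower under 7 of 17 alternatives, among them the mean of its kept probes (-0.97, adjusted p = 0.0185), quantile normalization (-0.67, adjusted p = 0.0402) and no scaling (-1.29, adjusted p = 0.00262). In iron storage and its chaperones, 1 of 7 rose: Bola2 by 1.34 (2.54-fold, adjusted p = 0.00636; 0.056 without the first untreated array). Its partner Glrx3 (0.36, adjusted p = 0.118), Ncoa4, the receptor that delivers ferritin to lysosomes (-0.31, adjusted p = 0.242), and Pcbp4 (-0.33, adjusted p = 0.28) did not pass. Without scaling Ncoa4 (-1.06, adjusted p = 0.00531) and Pcbp4 (-1.08, adjusted p = 0.00664) were called lower.

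Iron regulators gave 0 higher and 3 lower of 9. Both RNA-binding iron sensors that act on ferritin and Tfrc mRNAs stayed short of the threshold, Aco1 at 0.49 (limma adjusted p = 0.0741) and Ireb2 at -0.13 (adjusted p = 0.669). Ireb2 was called lower without scaling (-0.88, adjusted p = 0.0229), beside a median over all genes of -0.59. Aco1 was called higher when dim probes were left in (0.49, adjusted p = 0.032), a setting that called 17297 genes higher. Epas1 (HIF-2 alpha) fell by 3.24 on the log2 scale (adjusted p = 0.00102), and Tmprss6, a protease that restrains hepcidin, by 3.23 (adjusted p = 0.00242), the latter well above background on only 1 of 2 DEM arrays. Hfe fell by 1.09 (adjusted p = 0.0326), and this call was lost without the first untreated array (adjusted p = 0.103) or the second (0.232). Of 24 genes of mitochondrial iron and iron-sulfur cluster assembly, 6 rose and 1 fell, with a median of 0.39. Those with the smallest p were the transporter Abcb8, which fell by 1.15 (adjusted p = 0.0136), and the assembly factors Ciapin1 (0.79, adjusted p = 0.02) and Hscb (0.71, adjusted p = 0.0341) and the cluster protein Cisd2 (0.73, adjusted p = 0.0357), which rose. Without the first and the second untreated array in turn, the adjusted p was 0.0873 and 0.134 for Abcb8, 0.145 and 0.0882 for Ciapin1, 0.117 and 0.225 for Hscb, and 0.224 and 0.155 for Cisd2. Hscb was also at 0.0501 without the second DEM array. Hscb and Cisd2 did not pass either with cyclic loess (adjusted p = 0.0848 and 0.0653), the percentile of detected probes (0.0743 and 0.0742), spike-in scaling (1.00 for both) or no intensity trend (0.0606 and 0.0529). Hscb was also lost with quantile normalization (adjusted p = 0.0664) and Cisd2 with the mean of its kept probes (0.42, adjusted p = 0.135). Without scaling Ciapin1 was at 0.04 (adjusted p = 0.873).

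Among 9 factors of the NRF2 and BACH family with their partners, 3 rose and 1 fell, with a median of 0.82. The small MAF proteins, with which NRF2 and BACH1 pair to bind DNA, rose for Mafg (1.91, 3.77-fold, limma adjusted p = 0.00228) and Maff (1.62, 3.08-fold, adjusted p = 0.00243). The third of them, Mafk, named after its value was seen, did not pass (0.82, adjusted p = 0.146, 95% interval -0.07 to 1.71), though it did without the second DEM array (1.36, adjusted p = 0.00401). Keap1, which holds NRF2 for degradation, rose by 0.88 (adjusted p = 0.0115); without scaling it was at 0.13 and did not pass (adjusted p = 0.585). The repressor Bach2 fell by 1.64 (adjusted p = 0.0058). With spike-in scaling Mafg, Maff and Bach2 did not pass (limma adjusted p = 0.158, 0.331 and 0.176), nor did Keap1. Bach1, the repressor released from DNA by heme, was at 0.88 (adjusted p = 0.0573) and Nfe2l2 at 0.71 (adjusted p = 0.0636), and neither passed. Bach1 did pass without the first DEM array (1.07, adjusted p = 0.0264) and Nfe2l2 without the second (0.93, adjusted p = 0.0162). Both also passed with the filter for all 4 arrays (adjusted p = 0.0496 and 0.0499), and Bach1 with normexp (0.0439). Without the first and the second untreated array in turn, the adjusted p was 0.0955 and 0.0852 for Keap1 and 0.0567 and 0.0548 for Bach2.

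**Figure D5:**
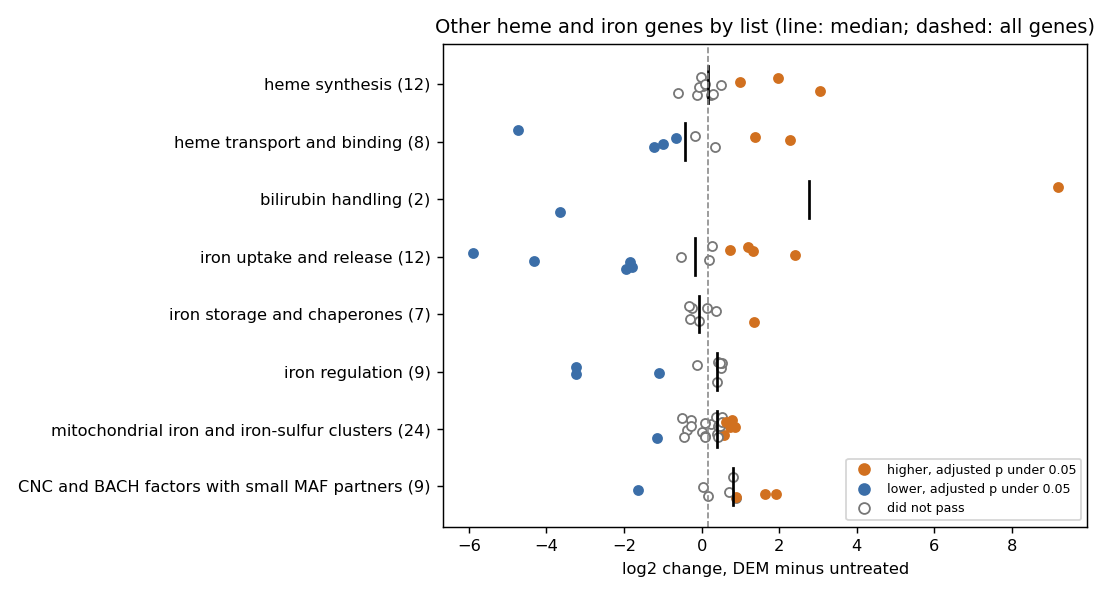
Log2 change, DEM minus untreated, of every tested gene in 8 lists of heme and iron genes other than the 10 (number tested in brackets; black line, list median; dashed line, median of all genes, 0.16); genes with only a bound are drawn at their fitted value. Heme synthesis holds 3 higher and 0 lower genes, and iron uptake and release holds 4 higher and 5 lower.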

How the data were processed

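Each array, a custom Agilent design, took Cy3-labelled RNA of 1 sample (500 ng, per the labels). Spot intensity was read by Feature Extraction 10.7.3.1, per the file headers, which subtracted background, replaced low signals by surrogates and marked spots well above background. The authors' deposited value table is on the log2 scale (column medians -4.39, -4.35, -4.30 and -4.36), at least 99.98% of which lay within 0.01 of the levels used here, so its scale, centring and direction were settled from the values.

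Control spots (1319 of 62976) and spots with outlier marks (130 probes) were left out. Log2 processed signal minus the 75th percentile was fitted with limma 3.58.1 (R 4.3.3, lmFit and eBayes with an intensity trend, 2 residual degrees of freedom). Probes well above background on 2 of 4 arrays were kept, the brightest per gene. Names came from RefSeq (GRCm38.p6), while the array design uses mm9. p-values were adjusted by Benjamini-Hochberg over all genes, two-sided. The fit was also run on simulated arrays with independent noise, which cannot show how the scaling affects the real ones. With 4 arrays, their number limits the precision. The members and lists were chosen with earlier results of these data known. Named were all members and, per list, up to 4 genes of smallest p, with 7 more always named; 1 gene under this rule is not reported here one by one and stays in the counts. Alternatives were normexp (offset 50, fitted on all spots), quantile, cyclic loess, median, detected-probe percentile and spike-in scaling, the authors' values, no filter, a filter for 4 arrays, probe means, no trend, a replicate block and each array left out. The setting without scaling between arrays was not planned and was added after seeing the data.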

Additional observations from a re-analysis of the deposited data

How the results depend on the processing

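Of 170 values for the 10 genes under 17 alternatives, 154 kept direction and call, 8 no longer passed, 4 newly passed and 4 changed sign. The causes were not tested. The changes of sign were Slc40a1 (-0.39 to 0.17) and Hmox2 (-0.227 to 0.00932) when 1 array was left out in turn (the former without the first untreated array, the latter without the second untreated or the first DEM array), and Blvra without scaling (-0.26); none of these 4 passed. Of the other named genes, without scaling Aco1 (-0.26), Cisd2 (-0.0184), Glrx3 (-0.39), Hscb (-0.0407) and Nfe2l2 (-0.0434) changed sign, and Ireb2 did so with the mean of all kept probes (0.0776) and without the second DEM array (range with 1 array left out, -0.334 to 0.0728). The count of genes higher, 3812 in the text, was 6470 with normexp, 2529 with cyclic loess, 363 with spike-in scaling, 17297 with no filter on dim probes, 877 without scaling and 644 to 4488 when 1 array was left out. The count of genes lower, 2900 in the text, was 889 with spike-in scaling, 9685 without scaling and 802 to 3814 when 1 array was left out. Of the 10 genes, 2 were higher with spike-in scaling (3 of 13 probes) and 3 lower without scaling. Of the list genes, 20 higher in the text were 3 with spike-in scaling, 9 without scaling and 8 to 21 with 1 array left out, and 15 lower were 6, 36 and 6 to 17, or 9 with the filter for 4 arrays. Fits with 1 array in a group assume that it varies like the other group. Whether the replicate numbers pair the arrays is not stated in the labels. Same-numbered deviations correlated at 0.08, which cannot settle it with 2 arrays per group. A replicate block gave 4473 higher and 3378 lower genes and changed no call of the 10. Of the other named genes it changed the calls of Bach1 (limma adjusted p = 0.0194) and Nfe2l2 (0.0123), which then passed. No spot was saturated, and all 10 genes were well above background on every array. Dim signal was a limit for some list genes and for markers such as Fap, Lum, Lyz1 and Tek.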
